A study of Homo sapiens with 4 samples.

Results

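The fibroblast growth factor (FGF) receptor axis was followed in the metastatic liver cancer cell line MHCC97H through 10 genes chosen by name: the receptors FGFR1, FGFR2, FGFR3 and FGFR4, the co-receptor KLB, the hormone FGF19, the adaptor FRS2 and the feedback inhibitors SPRY2, SPRY4 and SPRED1. Of these, 9 have a row among the 39306 gene names of the tables, and FGFR2 was not analysed here. Ribosomal RNA-depleted total RNA was sequenced from 2 libraries of cells in which a short hairpin RNA lowers HNRNPM, an RNA-binding splicing regulator (knockdown), and from 2 libraries of wild-type cells (control). The labels call the control cells wild type and name no control hairpin, while the column names carry NC for control and sh for knockdown, each with a number, without saying what these stand for. Delivery of a hairpin and loss of HNRNPM therefore cannot be told apart, and the number of hairpins used cannot be read from the names. Separate cultures are not mentioned either, so the p-values reflect how far these 4 libraries vary, possibly for technical reasons alone.

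FGFs bind receptor tyrosine kinases that recruit FRS2, which couples them to GRB2, SOS and the RAS-ERK cascade, and ERK in turn induces SPRY and SPRED proteins that restrain the cascade. FGF19 is an endocrine member made in the ileum when bile acids activate the nuclear receptor FXR. In hepatocytes it acts through FGFR4 with the co-receptor beta-klotho (KLB) and represses CYP7A1, the rate-limiting enzyme of bile acid synthesis. The FGF19 locus is amplified together with CCND1 in some hepatocellular carcinomas, and FGFR4 inhibitors have been developed for tumours in which this signal is active.

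Values are RPKM, read counts scaled for exon length and for the total of assigned reads, which allows levels to be compared between genes. The libraries held 12708165 and 11498663 assigned reads in knockdown and 18317579 and 19659106 in control cells. HNRNPM itself was at 21.8 and 20.4 RPKM in the knockdown libraries, against 51.3 and 51.6 RPKM in the control libraries, with no overlap. Of 11 hepatocyte markers, 7 reached 1 RPKM in every library, and the 11 summed to 1108 and 1155 RPKM in knockdown and 915 and 822 RPKM in control libraries. Most of that sum was KRT8 and KRT18, while ALB was at 1.75 and 1.78 RPKM in knockdown and 5.35 and 6.28 RPKM in control libraries and AFP stayed at or under 0.436 RPKM in all 4. The 3 fibroblast markers stayed at or under 0.164 RPKM each but summed to 0.318 and 0.405 RPKM in knockdown and 0.0539 and 0.121 RPKM in control libraries, with no overlap. The 2 leukocyte markers with a row stayed at or under 0.29 RPKM. Of 2 endothelial markers, CDH5 was at or under 0.332 RPKM, and PECAM1 was at 5.83 and 5.97 RPKM in knockdown and 8.55 and 9.01 RPKM in control libraries. The part of these marker differences in the results below was not tested.

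Of the receptor members with a row (FGFR1, FGFR3 and FGFR4), FGFR4 and FGFR3 were the abundant ones. Both were lower in knockdown cells, at 39.8% and 38.2% of their control means. SPRY4 was modestly lower, and no member was called higher. Of the 9 members with a row, 8 had enough reads to be tested and FGF19 did not. Of those 8, 3 were called lower and 0 higher by limma at an adjusted p under 0.05, and 5 were not called. At an unadjusted limma p under 0.05, 1 member (SPRY2) was higher, beside 18.5% of all tested genes. Limma-voom called 0 members higher, beside 16.2% of all tested genes. Among all 20221 tested genes, 13.8% were called lower, 11.1% higher and 24.9% in either direction. That split of 2240 higher and 2792 lower turned to 2783 higher and 2234 lower with RPKM as deposited, while limma-voom called 3278 higher and 3954 lower. Knockdown and control libraries were fully separated for 7 of the 8 tested members, where the background over all tested genes was 67.6%, so 7 of 8 is to be read against that share. The median log2 fold change was -0.11 over the 8 members and -0.03 over all tested genes. Fold changes are knockdown over control after a scaling between libraries and are on the log2(RPKM + 0.1) scale, which understates the change of low genes, whereas the RPKM values printed are as deposited. Each bulk value cannot tell fewer expressing cells from less RNA per cell.

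**Figure D1:**
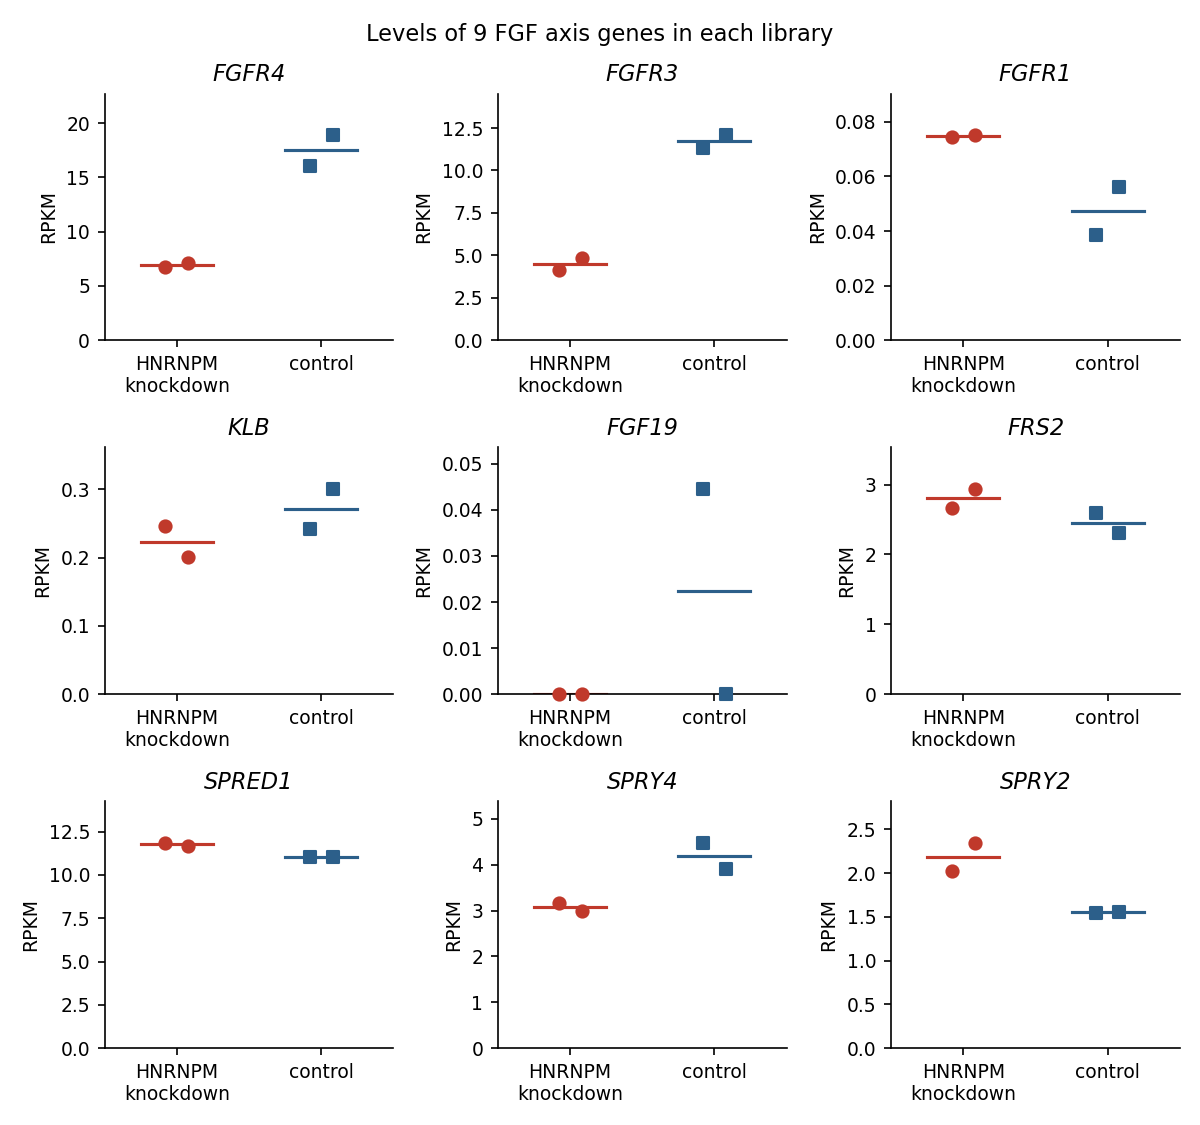
RPKM of 9 FGF axis genes in each library (knockdown as red circles, control as blue squares; horizontal lines are the means of 2 libraries), each panel with its own axis from 0. FGFR4 and FGFR3 average 6.96 and 4.48 RPKM in knockdown libraries and 17.5 and 11.7 RPKM in control libraries, while FGF19 is at 0 in 3 of 4 libraries.

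FGFR4 (GRCh38 chromosome 5, positions 177086886 to 177098144, plus strand, 4829 bp of annotated exon) encodes the main FGF receptor of hepatocytes and the FGF19 receptor. It was at 6.78 and 7.15 RPKM in knockdown libraries and at 16.0 and 18.9 RPKM in control libraries, from 397 to 1798 reads. Both knockdown libraries lay far below both control libraries. The mean of 6.96 ± 0.262 RPKM in knockdown cells was 39.8% of the 17.5 ± 2.06 RPKM in control cells (SD, n = 2 each). On the log2 scale FGFR4 fell by 1.37 ± 0.11 (SE; adjusted p = 0.00383 by limma), and the 95% interval for its fold ran from 0.319 to 0.466. Among the 20221 tested genes, 121 had a log2 fold change as low as that of FGFR4 or lower, and its control level stood at percentile 86.7.

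FGFR3 (chromosome 4, positions 1793307 to 1808872, plus strand, 4834 bp of exon) encodes a receptor best known from skeletal growth and bladder cancer. It was at 4.12 and 4.84 RPKM in knockdown libraries and at 11.3 and 12.1 RPKM in control libraries, from 253 to 1151 reads. The groups again lay far apart, with means of 4.48 ± 0.51 RPKM in knockdown and 11.7 ± 0.539 RPKM in control cells (SD, n = 2 each). On the log2 scale FGFR3 fell by 1.44 ± 0.11 (SE; adjusted p = 0.00382 by limma), the 95% interval for its fold ran from 0.304 to 0.450, and 96 tested genes were as low or lower. FGFR3P6, a pseudogene named after FGFR3, drew 0 to 2 reads per library. Neither receptor gene shares exon bases with another gene of the tables, and both calls held in all 13 alternative settings, including each library left out in turn.

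FGFR1 (chromosome 8, positions 38411138 to 38468834, minus strand), the receptor that dominates in many mesenchymal tissues, was barely detected. It had 12 and 11 reads in knockdown and 9 and 14 reads in control libraries, or 0.0744 and 0.0753 against 0.0387 and 0.0561 RPKM. The groups did not overlap on the RPKM scale, yet the log2 fold change of 0.22 ± 0.21 did not pass (SE; adjusted p = 0.477 by limma), since at 95% its fold could lie anywhere between 0.807 and 1.69. It shares 156 bp of exon with an antisense gene that held no read in 3 of 4 libraries. By mean level per length, the members ran SPRED1, FGFR4, FGFR3, SPRY4, FRS2, SPRY2, KLB, FGFR1 and FGF19 in knockdown cells and FGFR4, FGFR3, SPRED1, SPRY4, FRS2, SPRY2, KLB, FGFR1 and FGF19 in control cells. SPRED1 thus stood above both receptors in knockdown libraries and below both in control libraries. Neighbours overlapped only for FGFR1 and FGF19 in control cells, but SPRED1 and FGFR3 there, and SPRY4 and FRS2 in knockdown cells, lay closer together than the replicates of FGFR3 and of SPRY4 did.

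Summed over FGFR1, FGFR3 and FGFR4, receptor RNA came to 10.97 and 12.1 RPKM in knockdown libraries and 27.4 and 31.1 RPKM in control libraries. FGFR2, which was not analysed, is in neither this sum nor the shares of it. The mean sum in knockdown cells was 39.4% of that in control cells. FGFR4 made up 61.8% and 59.3% of the sum in knockdown libraries and 58.4% and 60.9% in control libraries, so its share overlapped between the groups. The ratio of FGFR3 to FGFR4, which no scaling between libraries can move, was 0.608 and 0.677 in knockdown and 0.709 and 0.639 in control libraries. These ratios overlapped as well (two-sided exact permutation p = 0.667, where 2 libraries against 2 cannot go below 0.333). A difference in the ratio between the groups was thus not detectable with these libraries, which does not show that the 2 genes moved equally.

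**Figure D2:**
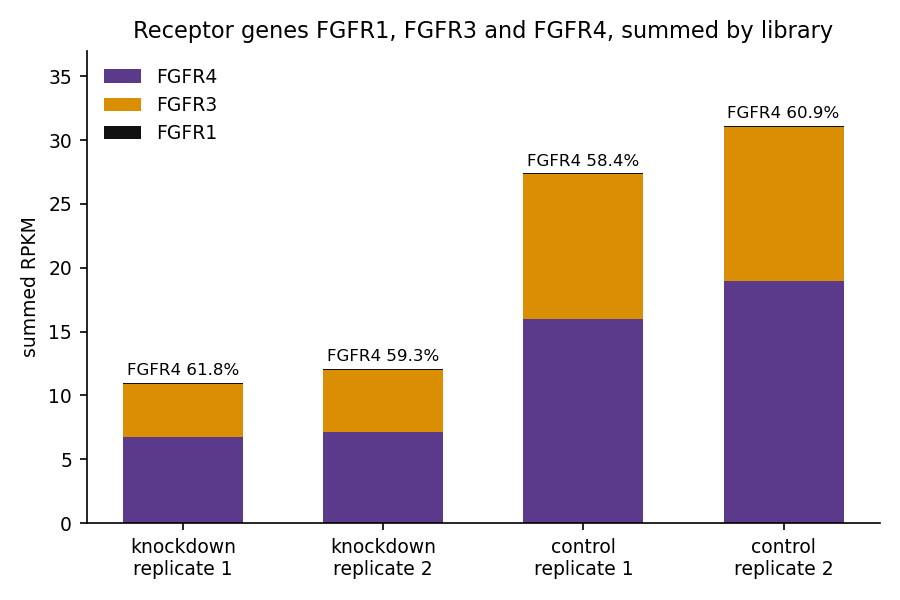
RPKM of FGFR4 (violet), FGFR3 (orange) and FGFR1 (black) stacked by library, with the share of FGFR4 in the sum above each bar. The sum is 10.97 and 12.1 RPKM in the knockdown libraries and 27.4 and 31.1 RPKM in the control libraries, and the share of FGFR4 runs from 58.4% to 61.8%.

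The 3 members called lower are given with the sequence around an annotated transcription start, 250 bases before it and 50 after, from RefSeq on GRCh38.p14, in the sense of the gene. They are printed because they are the members called lower, as were 13.8% of all tested genes. GC-rich boxes in the receptor promoters can be seen by eye. Any part of these boxes in the differences was not tested. Capitals mark GGGCGG or its reverse complement CCGCCC, the core of the box bound by Sp1-type factors.
FGFR3 promoter (chr4:1793043-1793342, plus strand): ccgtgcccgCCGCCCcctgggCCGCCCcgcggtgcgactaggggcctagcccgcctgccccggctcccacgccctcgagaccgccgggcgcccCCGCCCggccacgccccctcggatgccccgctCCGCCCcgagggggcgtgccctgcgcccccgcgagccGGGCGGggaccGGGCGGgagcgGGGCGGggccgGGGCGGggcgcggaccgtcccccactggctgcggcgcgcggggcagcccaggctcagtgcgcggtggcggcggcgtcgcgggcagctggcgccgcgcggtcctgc
FGFR4 promoter (chr5:177086665-177086964, plus strand): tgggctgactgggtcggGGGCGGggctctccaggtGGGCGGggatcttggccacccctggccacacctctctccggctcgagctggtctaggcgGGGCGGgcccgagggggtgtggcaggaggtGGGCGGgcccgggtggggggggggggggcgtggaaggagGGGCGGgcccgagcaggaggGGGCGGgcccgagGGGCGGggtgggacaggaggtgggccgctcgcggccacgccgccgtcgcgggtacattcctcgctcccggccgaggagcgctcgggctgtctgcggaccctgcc
SPRY4 promoter (chr5:142324198-142324497, minus strand): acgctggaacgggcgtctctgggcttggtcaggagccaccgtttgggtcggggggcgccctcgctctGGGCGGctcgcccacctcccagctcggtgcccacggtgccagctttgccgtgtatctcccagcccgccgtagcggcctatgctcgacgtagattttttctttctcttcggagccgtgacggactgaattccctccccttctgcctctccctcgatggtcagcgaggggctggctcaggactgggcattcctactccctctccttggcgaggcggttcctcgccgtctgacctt
The FGFR3 window held 8 such boxes and the FGFR4 window 7, while the SPRY4 window held 1. Over both strands, 45.0% of 35116 promoters of the same length held at least 1, 0.812% held 8 or more and 1.50% held 7 or more. GC content was 86.3% for FGFR3, 78.7% for FGFR4 and 65.0% for SPRY4, against a median of 58.7%. A further start annotated for FGFR4 (chr5:177089300-177089599) held no box. None of the 3 windows held an ETS site (CCGGAAG, in 10.3% of promoters), an AP-1 site (TGANTCA, in 7.71%) or a cAMP response element (TGACGTCA, in 1.85%), each searched on both strands. No capital letter therefore belongs to any of these other motifs. Promoters of members that were not called also carried boxes, with 3 in that of FRS2, 2 in the first of SPRY2 and 1 in that of SPRED1, and a promoter of FGFR2 held 5 at a GC content of 79.3%. The SPRY4 window lies inside the gene span that the tables give. RefSeq promoters were found for 8 of the 10 members.

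KLB (chromosome 4, positions 39406853 to 39451536, plus strand), without which FGF19 binds FGFR4 poorly, was low in every library. It was at 0.246 and 0.200 RPKM in knockdown libraries and 0.242 and 0.301 RPKM in control libraries, from 14 to 36 reads. The groups overlapped, and the log2 fold change of -0.25 ± 0.21 did not pass (SE; limma adjusted p = 0.426), with a fold between 0.586 and 1.21 at 95%. FGFR4 RNA stood at 27.6 and 35.7 times KLB per length in knockdown libraries and at 66.1 and 62.9 times KLB in control libraries.

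FGF19 (chromosome 11, positions 69698232 to 69704642, minus strand, 2447 bp of exon) was essentially not detected. It had 0 and 0 reads in knockdown libraries and 2 and 0 reads in control libraries. A count of 0 allows up to 3 reads, which is 0.0965 and 0.107 RPKM in knockdown libraries and 0.0624 RPKM in control replicate 2, counting error only. No fold was computed, since both groups were at or under that limit.

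Of 21 further FGF ligand genes listed, 13 have a row and only FGF11 and FGF2 had enough reads to be tested. FGF11, an intracellular FGF that does not activate the receptors, was at 1.004 and 0.922 RPKM in knockdown and 0.422 and 0.466 RPKM in control libraries. Its log2 fold change of 0.91 ± 0.17 passed (SE; limma adjusted p = 0.0191), but not without control replicate 1, knockdown replicate 1 or knockdown replicate 2 (limma adjusted p = 0.0572, 0.0779 and 0.0662). FGF11 shares 4175 bp of exon with a neighbouring transcript on the same strand, so its reads are uncertain. FGF2, a ligand of several FGF receptors, was at 1.05 and 1.10 RPKM in knockdown and 1.32 and 1.16 RPKM in control libraries and did not pass (log2 fold change -0.25, limma adjusted p = 0.296).

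FRS2 (chromosome 12, positions 69470349 to 69579789, plus strand), the docking adaptor that couples FGF receptors to GRB2 and SHP2, was not called. It was at 2.66 and 2.94 RPKM in knockdown and 2.59 and 2.31 RPKM in control libraries. On the log2 scale the difference was 0.12 ± 0.13 and did not pass (SE; adjusted p = 0.52 by limma), and the 95% interval for its fold ran from 0.87 to 1.37.

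Of the 3 feedback inhibitors among the members, SPRY4 alone passed the test. Among their relatives outside the members, SPRY1 was called lower (log2 fold change -0.40, limma adjusted p = 0.0319). SPRED3 was called higher (0.87, limma adjusted p = 0.0197), and SPRED2 and SPRY3 were not called (limma adjusted p = 0.119 and 0.809). With no filter on low values neither SPRY1 nor SPRED3 was called, and with RPKM as deposited SPRY1 was not called. SPRY4 (chromosome 5, positions 142310427 to 142326455, minus strand), a Sprouty protein that inhibits receptor-driven ERK signalling, was at 3.17 and 2.99 RPKM in knockdown libraries and 4.48 and 3.91 RPKM in control libraries. The groups did not overlap, and the log2 fold change of -0.49 ± 0.12 passed (SE; limma adjusted p = 0.0341), with a fold between 0.581 and 0.869 at 95%. The call depended on single libraries. It passed without control replicate 2 (limma adjusted p = 0.0481) but not without control replicate 1 (limma adjusted p = 0.105), knockdown replicate 1 (0.126) or knockdown replicate 2 (0.134), nor with RPKM scaled only as deposited (0.0515).

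SPRY2 (chromosome 13, positions 80335976 to 80340951, minus strand), its relative, was at 2.02 and 2.35 RPKM in knockdown and 1.55 and 1.56 RPKM in control libraries. Both knockdown libraries were above both control libraries, but the log2 fold change of 0.40 ± 0.15 did not pass (SE; limma adjusted p = 0.0963), with a fold between 1.03 and 1.70 at 95%. The ratio of SPRY4 to SPRY2 was 1.57 and 1.27 in knockdown libraries and 2.90 and 2.51 in control libraries, with no overlap. At 2 libraries against 2 its two-sided exact permutation p was 0.333, the smallest this design allows. SPRED1 (chromosome 15, positions 38252326 to 38357249, plus strand), which brings the RAS inactivator neurofibromin to the membrane, was not called either. It was at 11.9 and 11.6 RPKM in knockdown and 11.05 and 11.03 RPKM in control libraries (log2 fold change 0.03 ± 0.07, SE; limma adjusted p = 0.814), with a fold between 0.90 and 1.15 at 95%.

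**Figure D3:**
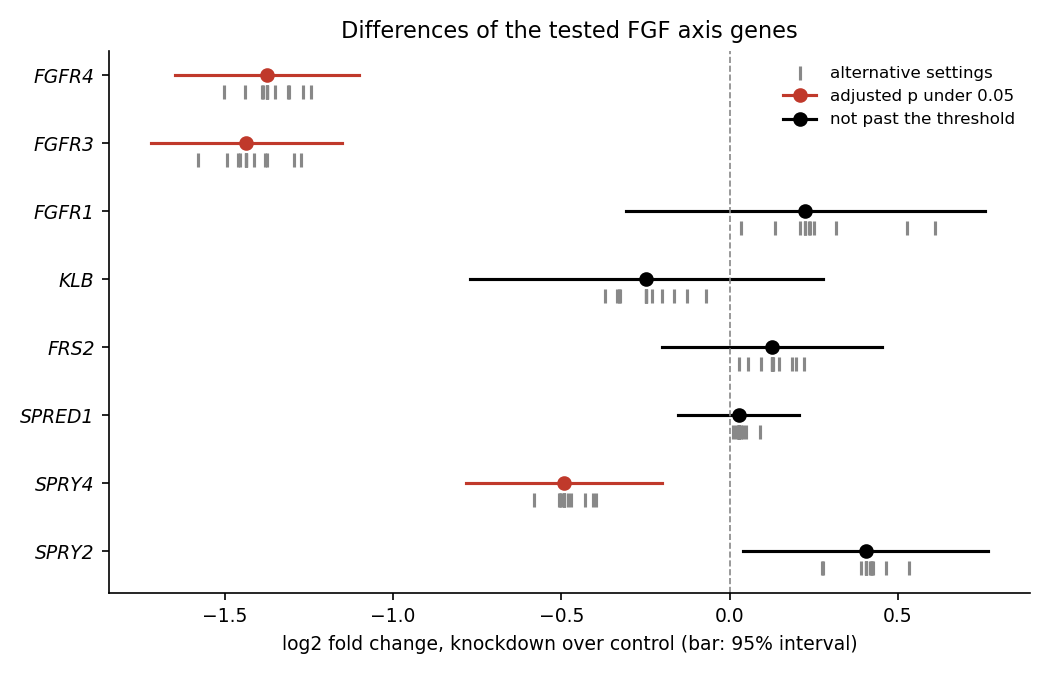
Log2 fold change (knockdown over control) of the 8 tested FGF axis genes with 95% intervals from limma, in red where the adjusted p is under 0.05, and grey ticks for the alternative settings. FGFR4 lies between -1.50 and -1.25 and FGFR3 between -1.58 and -1.27 in the alternative settings, SPRY4 is at -0.49, and the intervals of FGFR1, KLB, FRS2 and SPRED1 span 0.

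The pathway around the members was described through 8 lists of related genes, 134 distinct genes of which 98 were tested, with 20 called higher and 13 lower (19 of 97 higher without FABP6, which passed the read filter only through knockdown libraries). Of 12 tested co-receptors and binding proteins of FGF signalling, 6 were lower and 0 higher, where 13.8% of all tested genes were lower and 11.1% higher. At an unadjusted limma p under 0.05, 8 were lower and 0 higher (22.3% and 18.5% of all tested genes), and limma-voom called 8 lower and 1 higher (19.6% and 16.2% of all tested genes). Their median log2 fold change was -0.47, where all tested genes had -0.03. The lists were chosen with earlier results of these data known, so these counts are description only. FGFRL1, a receptor-like gene, was at 29.3 and 29.0 RPKM in knockdown and 33.1 and 41.2 RPKM in control libraries. It was not called (limma adjusted p = 0.0567). SDC4 went the other way, at 31.1 and 32.5 against 22.2 and 28.4 RPKM, and was not called (limma adjusted p = 0.172). SDC1, a heparan sulfate proteoglycan that presents FGFs to their receptors, was at 51.0 and 51.7 RPKM in knockdown and 94.7 and 111 RPKM in control libraries (log2 fold change -1.06 ± 0.10, SE; limma adjusted p = 0.00434). GPC1, a membrane-anchored heparan sulfate proteoglycan, was at 28.6 and 31.4 RPKM in knockdown and 51.1 and 52.1 RPKM in control libraries (-0.84 ± 0.08; limma adjusted p = 0.00434). FLRT3, a transmembrane protein that binds FGF receptors, was at 4.97 and 4.57 RPKM in knockdown and 7.88 and 7.87 RPKM in control libraries (-0.77 ± 0.09; limma adjusted p = 0.00615). These 3 passed whichever library was left out. CDH2 (N-cadherin), which can bind FGFR1, fell by less, with a log2 fold change of -0.38 ± 0.07 (limma adjusted p = 0.0149), and did not pass without knockdown replicate 1 or 2 (limma adjusted p = 0.129 and 0.085). The number of list genes called lower was 6 and 4 without control replicate 1 and 2, and 3 and 3 without knockdown replicate 1 and 2.

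Of 20 receptor-proximal adaptors and enzymes, 4 were higher and 0 lower, beside backgrounds of 11.1% higher and 13.8% lower, with a median log2 fold change of 0.08. At an unadjusted limma p under 0.05 the counts were 4 higher and 1 lower, beside 18.5% and 22.3% of all tested genes. By limma-voom they were 5 and 1, beside 16.2% and 19.6% of all tested genes. SHC1, an adaptor that links receptors to GRB2 and shares 335 bp of exon with PYGO2, was at 89.9 and 89.2 RPKM in knockdown and 62.5 and 57.3 RPKM in control libraries (log2 fold change 0.52 ± 0.07, SE; limma adjusted p = 0.00789). SOS1, the exchange factor that loads RAS with GTP, was at 12.0 and 10.9 RPKM in knockdown and 7.14 and 6.34 RPKM in control libraries (0.70 ± 0.10; limma adjusted p = 0.00848). CBLB, a ubiquitin ligase for activated receptors, and STAT3, a transcription factor, had log2 fold changes of 0.74 ± 0.12 and 0.33 ± 0.08 (limma adjusted p = 0.0114 and 0.0334). Without knockdown replicate 1 none of the 4 passed (limma adjusted p = 0.0742 for SHC1, 0.0621 for SOS1, 0.063 for CBLB and 0.173 for STAT3). Without knockdown replicate 2, SHC1 and STAT3 did not pass (0.0827 and 0.128), and STAT3 also failed without control replicate 1 or 2 (0.0764 and 0.0619).

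In the RAS-RAF-MEK-ERK core, 2 of 13 genes were higher and 0 lower, near the background of 11.1% higher, with a median of 0.07. At an unadjusted limma p under 0.05 the counts were 3 higher and 1 lower, beside 18.5% and 22.3% of all tested genes. By limma-voom, whose background is 16.2% higher and 19.6% lower, they were 4 and 1. MAPK3, which encodes ERK1, was at 8.26 and 9.01 RPKM in knockdown and 6.01 and 6.02 RPKM in control libraries (log2 fold change 0.45 ± 0.09, SE; limma adjusted p = 0.0226). MAP2K1, which encodes MEK1, was at 23.6 and 22.3 RPKM in knockdown and 18.0 and 17.8 RPKM in control libraries (0.29 ± 0.07; limma adjusted p = 0.0317). Neither passed when any library was left out, with limma adjusted p from 0.0529 to 0.142 for MAPK3 and from 0.0596 to 0.188 for MAP2K1. ARAF, a RAF kinase, and KSR1, a scaffold of the cascade, had log2 fold changes of -0.21 and 0.36 and did not pass (limma adjusted p = 0.0822 and 0.097).

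Genes of the ERK output and feedback list, which leaves out the members, went in both directions. The list also holds SHOC2, which acts upstream of ERK. Of 19 tested, 6 were higher, beside a background of 11.1%, and 3 lower, near the background of 13.8%, with a median of -0.08. DUSP5, SPRED3 and SHOC2 were among those higher (limma adjusted p = 0.0111, 0.0197 and 0.0253). SPRY1 and MYC were among those lower (limma adjusted p = 0.0319 and 0.0439). With no filter on low values, none of DUSP5, SPRED3, SHOC2, SPRY1 and MYC was called. Among those not called were ETV4, ETV5 and DUSP4 (log2 fold change -0.13, -0.13 and -0.15, limma adjusted p = 0.261, 0.255 and 0.195). IER3, an early response gene, was at 135 and 143 RPKM in knockdown and 59.6 and 60.9 RPKM in control libraries (log2 fold change 1.14 ± 0.07, SE; limma adjusted p = 0.00309). DUSP6, the ERK-specific phosphatase that is a common readout of FGF signalling, was at 60.2 and 58.8 RPKM in knockdown and 37.5 and 34.2 RPKM in control libraries (0.67 ± 0.07; limma adjusted p = 0.00536). PHLDA1 was at 79.9 and 81.3 RPKM in knockdown and 49.4 and 50.7 RPKM in control libraries (0.62 ± 0.06; limma adjusted p = 0.00528). EPHA2, an ephrin receptor, was at 19.8 and 21.0 RPKM in knockdown and 30.8 and 31.0 RPKM in control libraries (-0.66 ± 0.07; limma adjusted p = 0.00537). All 4 passed whichever library was left out, except PHLDA1 without knockdown replicate 2 (limma adjusted p = 0.05003). DUSP6, PHLDA1 and IER3 overlap antisense genes, by 1875 bp in DUSP6, whose antisense gene was itself at 62.0 and 64.2 RPKM in knockdown and 37.8 and 36.01 RPKM in control libraries, and, although the library kit keeps strand, no source states that the reads were counted by strand, so reads of these genes and of their antisense partners cannot be told apart. Without knockdown replicate 1 and 2 the list held 3 and 2 genes called higher and 1 and 1 called lower, and with RPKM as deposited 1 was called lower.

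**Figure D4:**
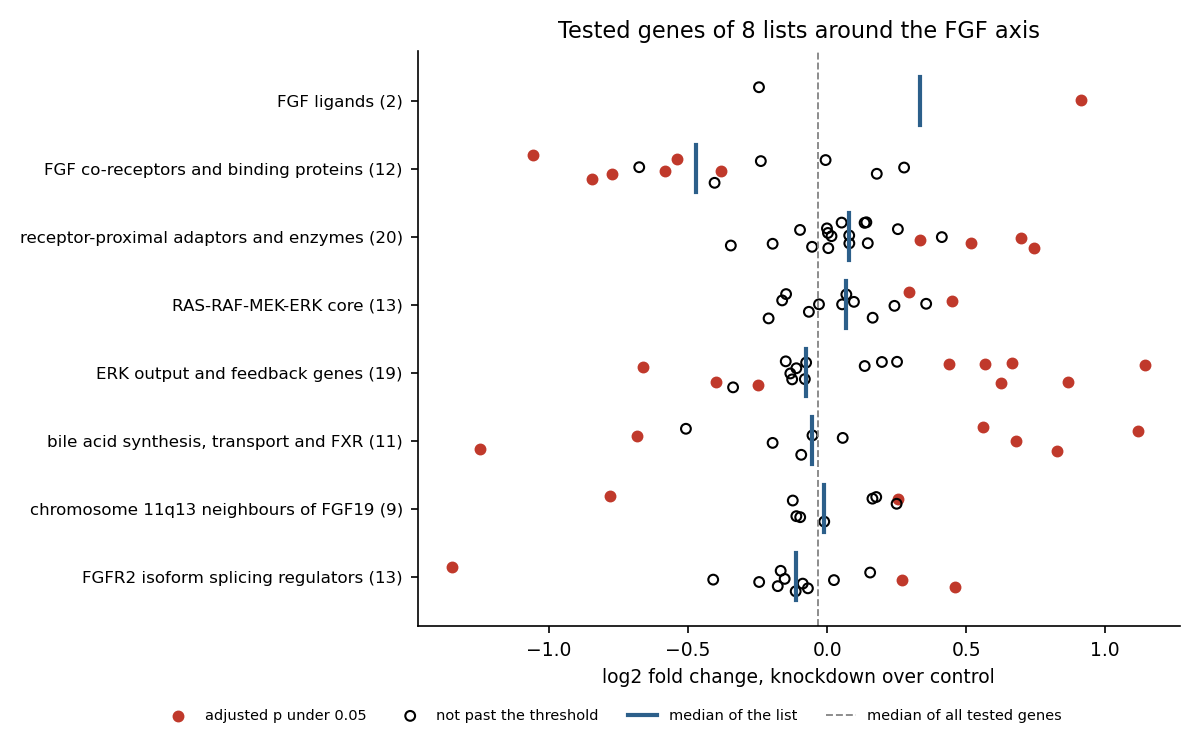
Log2 fold change (knockdown over control) of the tested genes in 8 lists around the FGF axis, with the number tested in brackets, filled red where the adjusted p is under 0.05; blue bars are list medians and the dashed line is the median of all tested genes. The co-receptor and binding protein list has its median at -0.47, and the other lists with more than 2 tested genes have theirs between -0.11 and 0.08.

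Genes of bile acid synthesis and transport and FXR itself gave 4 higher and 2 lower of 11 tested, with a median of -0.05. FABP6, the ileal bile acid binding protein, is 1 of the 4 and passed the read filter only through its knockdown libraries, with 12 and 13 reads there and 7 and 8 in control libraries, so nothing is read from its call. Without it, 3 of 10 were higher, beside a background of 11.1%, and 2 lower, near the background of 13.8%. Those higher were NR1H4, ABCB11 and NR5A2. ABCB11 was at 0.703 and 0.844 RPKM in knockdown and 0.371 and 0.375 RPKM in control libraries (limma adjusted p = 0.0299). SLC51A was not called (log2 fold change -0.05, limma adjusted p = 0.813). CYP7A1, the classic FGF19-repressed gene, had 0 and 1 reads in knockdown and 0 and 0 reads in control libraries and was not tested, so that its response cannot be read here. SLC51B, a subunit of the basolateral bile acid exporter and an FXR target, was at 10.5 and 9.34 RPKM in knockdown and 24.0 and 21.5 RPKM in control libraries (log2 fold change -1.25 ± 0.09, SE; limma adjusted p = 0.00361). CYP27A1, which starts the alternative bile acid pathway, was at 14.3 and 14.3 RPKM in knockdown and 21.7 and 22.4 RPKM in control libraries (-0.68 ± 0.07; limma adjusted p = 0.00503). Both passed whichever library was left out. NR1H4, which encodes FXR, was at 5.87 and 6.21 RPKM in knockdown and 3.74 and 4.03 RPKM in control libraries (0.56 ± 0.10; limma adjusted p = 0.0176), and did not pass without knockdown replicate 1 or 2 (limma adjusted p = 0.065 and 0.0978). Without knockdown replicate 1 and 2, 0 and 0 list genes were called higher and 2 and 2 lower, and without control replicate 1 and 2, 2 and 2 were called higher.

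Around FGF19 itself, at 11q13, 1 of 9 tested neighbours was higher and 1 lower, about the background of 11.1% and 13.8%, with a median of -0.01. CCND1, the cyclin D1 gene near FGF19, was at 32.4 and 35.1 RPKM in knockdown and 36.9 and 32.9 RPKM in control libraries. It shares 497 bp of exon with the antisense gene ORAOV1 and was not called (log2 fold change -0.11, limma adjusted p = 0.383). FGF19 had at most 2 reads in any library. TPCN2, a lysosomal channel gene, was at 1.35 and 1.40 RPKM in knockdown and 2.22 and 2.44 RPKM in control libraries (-0.78 ± 0.14, SE; limma adjusted p = 0.016). It did not pass without control replicate 2, knockdown replicate 1 or knockdown replicate 2 (limma adjusted p = 0.0555, 0.0708 and 0.0544). MYEOV had a log2 fold change of 0.26 ± 0.07 (limma adjusted p = 0.0444) and did not pass when any library was left out (limma adjusted p from 0.0645 to 0.268) or with the replicate number as a block (0.0557). CTTN (cortactin) and ANO1, a chloride channel, had 0.18 and 0.25 and did not pass (limma adjusted p = 0.102 and 0.354), though CTTN passed with RPKM as deposited (limma adjusted p = 0.0472) and by limma-voom (0.0495).

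HNRNPM and other factors are known to choose between the epithelial and mesenchymal exons of FGFR2, which gene-level values cannot show. Of 13 tested regulators of that choice, 2 were higher, near the background of 11.1%. The 1 called lower was the knockdown target HNRNPM itself, beside a background of 13.8%. By limma-voom 2 were higher and 3 lower, beside 16.2% and 19.6% of all tested genes. RBFOX2, an RNA-binding splicing factor, was at 6.88 and 7.18 RPKM in knockdown and 4.85 and 4.88 RPKM in control libraries (log2 fold change 0.46 ± 0.09, SE; limma adjusted p = 0.0205). It did not pass without control replicate 1, knockdown replicate 1 or knockdown replicate 2 (limma adjusted p = 0.0511, 0.0815 and 0.126). HNRNPA1 had 0.27 ± 0.07 (limma adjusted p = 0.0405) and did not pass without those same libraries (0.0592, 0.25 and 0.235). PTBP1, a repressor of exons, had -0.24 ± 0.08 and did not pass (limma adjusted p = 0.0821), though it did without control replicate 2 (0.0482). ESRP1, an epithelial splicing factor, had 0 or 1 read in every library. ESRP2, its relative, was at 1.53 and 1.88 RPKM in knockdown and 1.31 and 1.60 RPKM in control libraries. It was not called (log2 fold change 0.15, limma adjusted p = 0.572).

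Among 16121 tested genes with a mean of at least 1 RPKM, the pattern of FGFR4 over the 4 libraries, measured as the distance between centred log2 levels, was most like those of GRAMD1B (distance 0.0523), ADH6 (0.0609) and SREBF1 (0.0806). GRAMD1B encodes a sterol transfer protein, ADH6 an alcohol dehydrogenase and SREBF1 a transcription factor of lipid synthesis. FGFR3, at 0.162, ranked 23 by this distance when all 20221 tested genes were counted, whatever their level. SREBF1 was at 10.04 and 10.6 RPKM in knockdown libraries and 25.2 and 29.5 RPKM in control libraries, with control replicate 2 the higher of its pair as in FGFR4. With 4 libraries, likeness mostly reflects a like fold change, and nothing about shared control follows. For FGF19 no such comparison was made, as it was under the read filter.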

How the data were processed

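Trimmomatic 0.36, StringTie 1.3.2, edgeR 3.12.1, Subread 1.5.1 and its counter featureCounts are listed per the submitters' processing notes, without roles or order. The notes name the build mm9, but gene names and positions in the tables are human GRCh38. Which aligner and strand setting served, and how molecular identifiers were handled, the sources used here do not say. The deposited values are RPKM per gene name, computed by the authors from exon reads. RPKM times exon length gave whole reads in 100% of values, within 0.01 of a read, and every row had a read in at least 1 library. RPKM was divided by TMM factors (trims of 30% and 5%) computed on those reads, and log2(RPKM + 0.1) was tested with limma 3.58.1 in R 4.3.3, with group as the only term, a spread moderated along expression (2 residual and 3.56 prior degrees of freedom) and Benjamini-Hochberg adjustment over all tested genes. Genes needed the equivalent of 10 reads at median depth in 2 libraries and 15 reads in all. Procedures were tested on simulated data. The 95% intervals come from the limma fit, and limits for counts of 0 cover counting error only. The named genes were HNRNPM, all members and, of each list, the 4 with the smallest adjusted p. Further genes were named after their values were seen. They were CYP7A1, CCND1, ESRP1, ESRP2, FGFR3P6, FGFRL1, SDC4, ABCB11, NR5A2, SLC51A, SPRY1, SPRY3, SPRED2, SPRED3, DUSP4, DUSP5, SHOC2, MYC, ETV4 and ETV5. The members and lists were chosen with earlier results of these data known. Alternatives were other scalings, pseudocounts, filters, limma-voom, robust moderation, a replicate block and each library left out. The replicate numbers were not taken to pair the libraries.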

Additional observations from a re-analysis of the deposited data

How the results depend on the processing

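Of 13 alternatives, all left FGFR3 (log2 fold change -1.58 to -1.27) and FGFR4 (-1.50 to -1.25) called lower, and no tested member changed direction in the alternatives that tested it (12 for FGFR1, which failed the stricter filter). SPRY4 kept its direction but did not pass with RPKM as deposited (-0.43, limma adjusted p = 0.0515), with no filter on low values (-0.49, limma adjusted p = 0.0894), or in 3 of the 4 fits with a library left out, whose values ran from -0.58 to -0.41. With no filter, 693 of all genes were called higher and 1113 lower, and 6 and 8 distinct genes of the lists, where 39306 genes entered the adjustment. With a library left out, from 488 to 1827 of all genes were called higher and from 821 to 1929 lower, and from 3 to 14 distinct list genes higher and from 7 to 11 lower, the fewest without a knockdown library. The replicate numbers did not pair the libraries: across genes, the differences between replicates 1 and 2 in the 2 groups correlated at r = 0.0628. With the number as a replicate block, 3 members were called lower and 0 higher, and 2348 genes higher and 2781 lower in all. Without scaling factors the median of all tested genes moved by 0.06 on the log2 scale. Read depth limits FGF19, FGFR1 and KLB, for which at most 36 reads were counted in any library.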
